A study of Macaca mulatta with 19 samples.

Results

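The 10 genes described here bring fatty acids into the cell, activate them and store them in lipid droplets. PLIN1, PLIN2 and PLIN3 encode perilipins, which coat the droplet. CIDEB belongs to the CIDE family of droplet proteins, DGAT1 makes triglyceride, CD36 takes up fatty acids, PPARG is a nuclear receptor of the fat storage programme, and ACSL1, ACSL3 and ACSL4 are acyl-CoA synthetases. The genes were taken by symbol from the table of raw counts, where each name matched 1 of 32386 genes, and the rule used the symbols alone. All 10 had counts high enough for testing.

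A fatty acid that enters a cell is first joined to coenzyme A by an acyl-CoA synthetase. The product can be burned in mitochondria, built into membranes, or esterified to triglyceride and cholesteryl ester and packed into droplets. In granulosa cells that luteinize around ovulation, droplets hold cholesteryl ester for progesterone synthesis, and perilipins limit the access of lipases to that store.

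RNA was sequenced from luteinized granulosa cells of 19 rhesus macaques, 1 library per animal, to ask what chronic testosterone and a Western-style diet do to the follicle about to ovulate. All females carried an implant from about menarche for some 3.5 years, with cholesterol (C) or with testosterone (T) that raised the hormone 4 to 5 fold, and ate standard chow or the Western-style diet (WSD). The groups were the control Chow+C with 4 animals, Chow+T with 4, WSD+C with 5 and WSD+T with 6, from 10 animals enrolled per treatment of which 7 to 10 entered controlled ovulation cycles. The follicle that the animal had selected by itself was aspirated, so the cells come from 1 follicle per animal, and the labels name no sorting of them and no sequencing batch. The oocyte of the same follicle was at metaphase I (MI) in 8 libraries, at metaphase II (MII) in 4, degenerating in 6 and at the germinal vesicle stage (GV) in 1. MI oocytes came from 3 Chow+C, 3 WSD+C and 2 WSD+T animals, MII oocytes from 1 Chow+C, 2 Chow+T and 1 WSD+T animal, degenerating oocytes from 1 Chow+T, 2 WSD+C and 3 WSD+T animals, and the GV oocyte from Chow+T, so oocyte class was spread unevenly over the treatments. Libraries are named by group and number, so that WSD+C 4 is the fourth library of WSD+C.

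Libraries held 28832132 to 56385679 gene counts (median 40433333), from 49.1% to 69.1% of reads. Levels are given as counts per 1000000 gene counts after TMM scaling (CPM). These values are not divided by gene length, so levels are compared between libraries and never between genes. Granulosa markers were present throughout, with 10 of 11 at 1 CPM or more in each library and LHCGR, the luteinizing hormone receptor, under it only in WSD+C 4 (0.42 CPM). Markers of adipocytes, the cells in which several of the 10 genes are best known, did not reach 1 CPM in all libraries for any of the 6 genes found. ADIPOQ, the adipocyte hormone adiponectin, was at 0 in 5 libraries and at most 1.30 CPM (WSD+C 4). LEP was at 0 in 10 libraries and TRARG1 in 12, while the complement factor CFD, which white blood cells also make, reached 107 CPM in WSD+T 6. The adipocyte list summed to 115 CPM in WSD+T 6, 63.6 CPM in WSD+C 4 and 21.7 CPM in WSD+T 3, and to 0.772 to 7.48 CPM in the other 16 libraries. The leukocyte score, the mean log2 CPM of 11 white blood cell genes, was 7.39 in WSD+C 4, 6.85 in WSD+T 6 and 4.11 in WSD+T 3, and -0.89 to 3.04 in the other 16 libraries. These libraries each came from a follicle with a degenerating oocyte. Among the 10 genes, WSD+C 4 was lowest of all libraries in 5 and highest in 1. WSD+T 3 was lowest in 1 and highest in 4, and WSD+T 6 was highest in 1. WSD+C 4 also had the lowest granulosa score, 5.92, and the highest sums of erythroid genes (128861 CPM, at most 3434 elsewhere), smooth muscle genes (2699 CPM, at most 180.2 elsewhere), lymphocyte genes (508 CPM, at most 39.3) and oocyte genes (231 CPM, at most 18.5). The part of these cells in the values of WSD+C 4 was not tested. In tissue samples of this kind, fewer cells of a type and less RNA per cell cannot be told apart.

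None of the 10 genes passed edgeR's quasi-likelihood test (adjusted p under 0.05 over 15019 genes) in any of the 8 treatment comparisons, and 0% of all genes passed in each of them. DESeq2 and limma called 0 of the 10 as well, where DESeq2 called 0 to 5 of all genes per comparison and limma 0. At an unadjusted p under 0.05 the 10 genes counted 0 in Chow+T minus Chow+C (7.18% of all genes), 0 in WSD+C minus Chow+C (5.08%), 0 in WSD+T minus Chow+C (6.75%), 0 in WSD+T minus WSD+C (3.86%) and 0 in WSD+T minus Chow+T (4.97%). They counted 1 for the testosterone main effect (6.31%), 0 for the diet main effect (6.87%) and 1 for the testosterone by diet interaction (4.52%). No gene of the 10 had group ranges without overlap in these 5 pairs, where the share over all genes was 2.66%, 0.553%, 0.739%, 0.0732% and 1.17% in the same order. The 3 comparisons against Chow+C use the same 4 control libraries.

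The median log2 difference of the 10 genes was set beside that of all genes in each pair, with no test of the gap. It was 0.04 with 5 of 10 positive for Chow+T minus Chow+C, beside -0.02 over all genes, and 0.03 with 5 of 10 positive for WSD+C minus Chow+C, beside 0.02. For WSD+T minus Chow+C it was 0.17 with 8 of 10 positive, beside -0.00087. For WSD+T minus WSD+C it was 0.06 with 6 positive, beside -0.00022, and for WSD+T minus Chow+T 0.14 with 7 positive, beside 0.04.

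**Figure D1:**
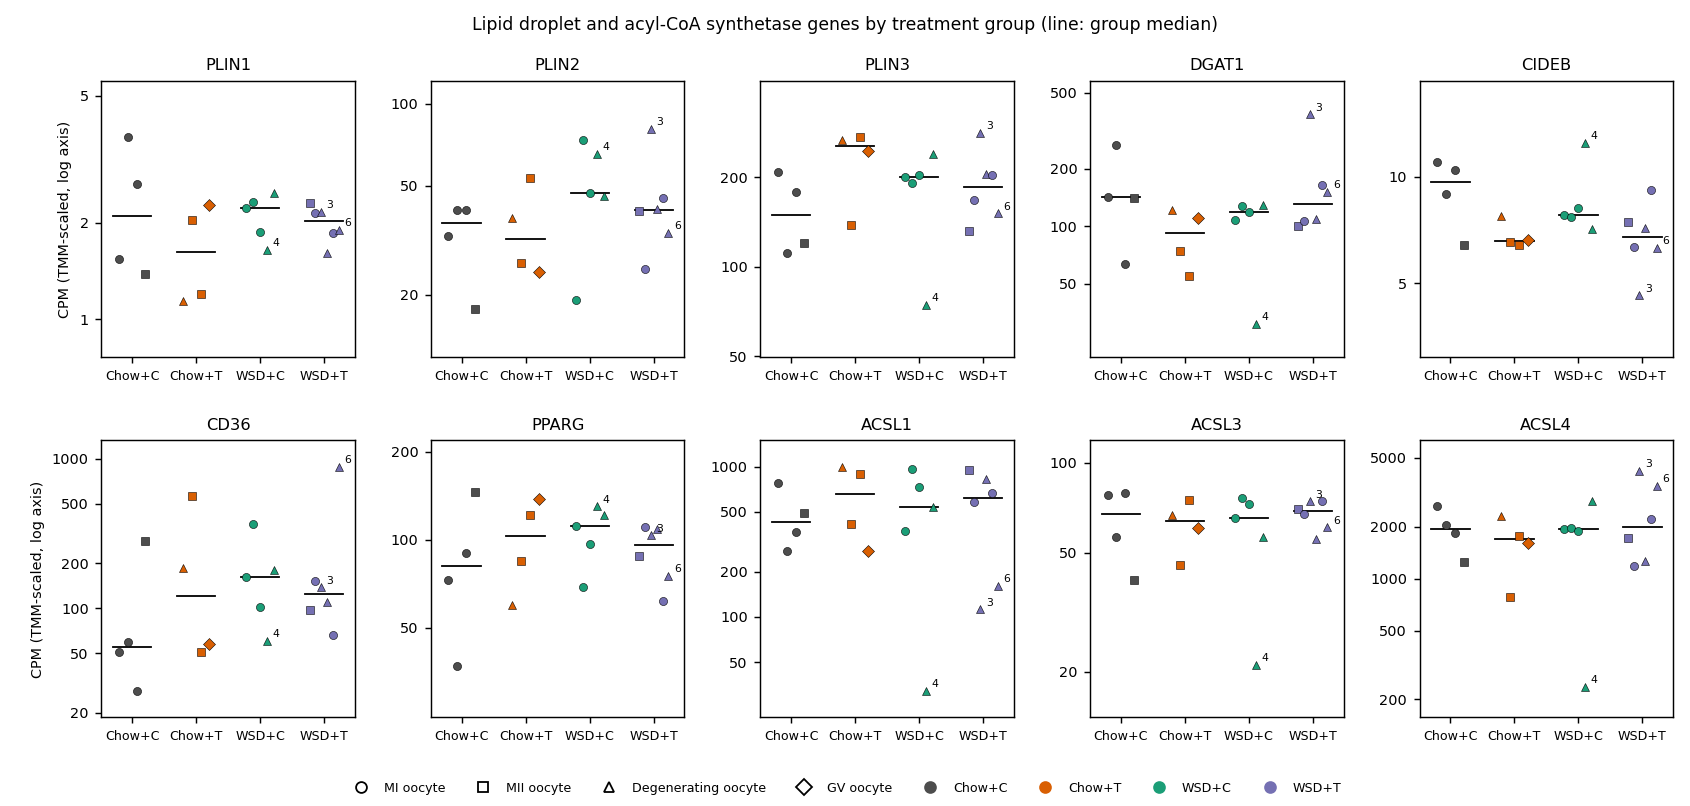
CPM (log axis) of each of the 10 genes in the 19 libraries by treatment group, with a line at the group median, colours for groups, marker shapes for oocyte classes, and the numbers of WSD+C 4, WSD+T 3 and WSD+T 6 beside their points. The ranges of all 4 groups overlap in every panel, and the points farthest from their group are mostly triangles, such as DGAT1 in WSD+T 3 at 385 CPM and ACSL1 in WSD+C 4 at 32.2 CPM.

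PLIN2 (ENSMMUG00000013997), the perilipin that coats droplets in most cells outside fat, stood at 32.8, 40.9, 40.7 and 17.7 CPM in Chow+C 1 to 4. In Chow+T 1 to 4 it was at 38.1, 26.0, 53.5 and 24.2 CPM, and in WSD+C 1 to 5 at 19.1, 73.9, 47.2, 65.4 and 45.8 CPM. In the 6 WSD+T libraries its lowest level was 24.9, its median 40.9 and its highest 81.0 CPM. All 3 libraries above 60 CPM came from animals on the Western-style diet, yet both diets also held libraries under 26 CPM, and the ranges overlapped. The diet main effect was 0.47 on the log2 scale (95% CI -0.09 to 1.03, adjusted p = 0.789), and 0.19 with the MI and MII libraries alone. That subset holds no MI library of Chow+T and no MII library of WSD+C, so treatment and oocyte class are partly mixed in it. Without WSD+T 3, where PLIN2 was highest, the diet main effect was 0.34, and without WSD+C 4, WSD+T 6 and WSD+T 3 together 0.29.

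PLIN3 (ENSMMUG00000014816), a perilipin that moves from the cytosol onto young droplets, was at 209, 112, 179 and 120.3 CPM in Chow+C 1 to 4 and at 266, 139, 274 and 245 CPM in Chow+T 1 to 4. Of the Chow+T libraries 3 lay above all Chow+C libraries, and Chow+T 2 lay among them. The log2 difference was 0.58 (95% CI -0.11 to 1.27, adjusted p = 0.703). Levels in WSD+C 1 to 5 were 200.1, 192, 203, 74.4 and 239.8 CPM. In WSD+T the lowest level was 132, the median 186 and the highest 282 CPM. On this diet testosterone gave a log2 difference of 0.07 (95% CI -0.52 to 0.66), and -0.13 without WSD+C 4, the lowest library of all. The testosterone by diet interaction for PLIN3 was -0.51 (95% CI -1.42 to 0.40), an interval that includes 0.

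PLIN1 (ENSMMUG00000017746), the perilipin of adipocytes and of steroid-producing cells, rested on few reads, 46 to 111 per library. It ranged from 1.38 to 3.72 CPM in Chow+C, 1.14 to 2.28 in Chow+T, 1.65 to 2.48 in WSD+C and 1.62 to 2.32 in WSD+T. The groups shared most of their range, and the 3 libraries that stood apart in other genes did not do so here, at 1.65 (WSD+C 4), 1.90 (WSD+T 6) and 2.17 CPM (WSD+T 3). The testosterone main effect was -0.28 (95% CI -0.76 to 0.20) and -0.12 without Chow+C 2, where PLIN1 was highest.

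CIDEB (ENSMMUG00000048106), known from the liver for loading lipid into lipoprotein particles and for joining small droplets, was the gene of the 10 with an unadjusted p under 0.05 for testosterone. It stood at 10.99, 8.93, 10.5 and 6.42 CPM in Chow+C 1 to 4, at 7.75, 6.53, 6.41 and 6.64 CPM in Chow+T 1 to 4, and at 7.79, 7.70, 8.19, 12.48 and 7.12 CPM in WSD+C 1 to 5. In WSD+T the lowest level was 4.63, the median 6.77 and the highest 9.16 CPM. Libraries from testosterone-treated animals thus lay lower on both diets, with overlap through Chow+C 4 on chow and through WSD+T 1, 4 and 5 on the Western-style diet. The testosterone main effect was -0.38 on the log2 scale (95% CI -0.71 to -0.05, unadjusted p = 0.0251, adjusted p = 0.767). It lay between -0.45 and -0.30 when any 1 library was left out, was -0.23 without WSD+C 4, WSD+T 6 and WSD+T 3, and -0.27 with the MI and MII libraries alone. That last subset holds no MI library of Chow+T and no MII library of WSD+C, so treatment and oocyte class are partly mixed in it. A reference table of the macaque assembly T2T-MMU8v2.0 lists 4 genes that overlap CIDEB (NOP9, LTB4R2, LTB4R and ADCY4). The libraries carry no strand information, so the count of CIDEB may include reads of these neighbours.

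DGAT1 (ENSMMUG00000000825) encodes an enzyme of the endoplasmic reticulum that adds the last fatty acid to triglyceride. It stood at 142, 266, 63.3 and 141 CPM in Chow+C 1 to 4 and at 122, 74.0, 54.9 and 109.7 CPM in Chow+T 1 to 4. In WSD+C 1 to 5 it was at 107, 127, 119, 30.8 and 129 CPM. In WSD+T the lowest level was 99.5, the median 130.1 and the highest 385 CPM. On chow the libraries with testosterone lay within or below the control range, and on the Western-style diet 2 libraries lay farthest out, WSD+C 4 at the bottom and WSD+T 3 at the top. The log2 difference made by testosterone was -0.76 on chow (95% CI -1.81 to 0.29) and 0.72 on the Western-style diet (95% CI -0.19 to 1.63). The interaction, the difference between these, was 1.48 (95% CI 0.09 to 2.87, unadjusted p = 0.0379, adjusted p = 0.933). It was 1.06 without WSD+T 3, 1.30 with the MI and MII libraries alone and 0.76 without WSD+C 4, WSD+T 6 and WSD+T 3. The difference on the Western-style diet was 0.30 without WSD+T 3 and -0.02 without all of these. On chow the difference was -0.36 without Chow+C 2, the highest control. The reference table lists HSF1 among the genes that overlap DGAT1, TIMP4 for PPARG and a long noncoding RNA for ACSL4, with the same limit on their counts.

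CD36 (ENSMMUG00000042946), a membrane receptor that takes up fatty acids and oxidized lipoproteins, is also found on macrophages, platelets and capillary endothelium. It was at 50.8, 59.98, 28.0 and 282 CPM in Chow+C 1 to 4, at 185, 568, 50.9 and 57.7 CPM in Chow+T 1 to 4, and at 162, 365, 102, 60.6 and 180.1 CPM in WSD+C 1 to 5. In WSD+T the lowest level was 66.0, the median 124 and the highest 885 CPM, in WSD+T 6. The whole range was 31.6 fold, and each treatment group had its own high library, so that the SD was larger than the mean in Chow+C (105 ± 119 CPM, SD, n = 4), Chow+T (215 ± 243 CPM, n = 4) and WSD+T (242 ± 317 CPM, n = 6), and smaller in WSD+C (174 ± 117 CPM, n = 5). The WSD+T minus Chow+C difference was 1.20 on the log2 scale (95% CI -0.65 to 3.05, adjusted p = 0.75). It was 0.10 without WSD+T 6 and 2.39 without Chow+C 4.

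Markers of cells that use CD36 moved with part of this pattern. The macrophage genes summed to 2860 CPM in WSD+T 6, the library of highest CD36, and to 158 CPM in Chow+T 2, the next highest. In WSD+C 4 they summed to 368 CPM while CD36 was at 60.6 CPM. In WSD+C 2 CD36 was at 365 CPM, with a leukocyte score of -0.69. Platelet genes summed to at most 10.5 CPM in any library, and endothelial genes to between 6.51 and 137 CPM, highest in WSD+T 6. The part of these cells in the level of CD36 was not tested beyond the slope given further on.

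PPARG (ENSMMUG00000007191) encodes a nuclear receptor that fatty acids and their derivatives bind and that switches on storage genes, PLIN1, PLIN2 and CD36 among them. It was at 72.8, 37.0, 89.8 and 146 CPM in Chow+C 1 to 4, at 59.7, 84.3, 122 and 138 CPM in Chow+T 1 to 4, and at 111, 69.0, 96.6, 130.4 and 122 CPM in WSD+C 1 to 5. In WSD+T it ran from 61.8 CPM through a median of 95.8 to 111 CPM. The groups overlapped almost entirely, and the extremes, 37.0 and 146 CPM, were both control libraries. The testosterone main effect was 0.0056 (95% CI -0.46 to 0.48) and the diet main effect 0.07 (95% CI -0.40 to 0.54).

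ACSL1 (ENSMMUG00000012177), the acyl-CoA synthetase of fat, liver and heart, was at 779, 274, 365 and 491 CPM in Chow+C 1 to 4 and at 995, 412, 898 and 275 CPM in Chow+T 1 to 4. In WSD+C 1 to 5 it was at 374, 965, 738, 32.2 and 543 CPM. The WSD+T libraries had a lowest level of 112, a median of 622 and a highest of 955 CPM. Outside WSD+C 4 (32.2 CPM), WSD+T 3 (112 CPM) and WSD+T 6 (161 CPM) no library was under 274 CPM, and the range over libraries was 30.9 fold with these and 3.64 fold without. The testosterone main effect was 0.24 (95% CI -0.80 to 1.29) and the diet main effect -0.04 (95% CI -1.08 to 1.003).

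ACSL3 (ENSMMUG00000005393), the synthetase that sits on growing droplets, varied least of the synthetases. It was at 78.0, 56.4, 79.0 and 40.6 CPM in Chow+C 1 to 4, at 67.1, 45.6, 75.02 and 60.5 CPM in Chow+T 1 to 4, and at 65.1, 75.9, 72.5, 21.1 and 56.5 CPM in WSD+C 1 to 5. WSD+T ran from 55.5 CPM through a median of 68.8 to 74.2 CPM. Without WSD+C 4 the range over libraries was 1.95 fold, and the treatment groups overlapped with or without it. Its diet main effect was -0.0069 (95% CI -0.42 to 0.41) and its testosterone main effect 0.08 (95% CI -0.33 to 0.50).

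ACSL4 (ENSMMUG00000004188), which prefers arachidonic acid and serves steroid-producing cells, was at 2638, 2044, 1849 and 1247 CPM in Chow+C 1 to 4. It was at 2306, 787, 1774 and 1609 CPM in Chow+T 1 to 4 and at 1927, 1958, 1895, 237 and 2796 CPM in WSD+C 1 to 5. In WSD+T the lowest level was 1177, the median 1978 and the highest 4200.5 CPM. The highest levels were in WSD+T 3 and WSD+T 6 (3456 CPM) and the lowest in WSD+C 4. The WSD+T minus WSD+C difference was 0.41 on the log2 scale (95% CI -0.60 to 1.42), 0.13 without WSD+C 4, 0.17 without WSD+T 3 and -0.43 without WSD+C 4, WSD+T 6 and WSD+T 3.

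**Figure D2:**
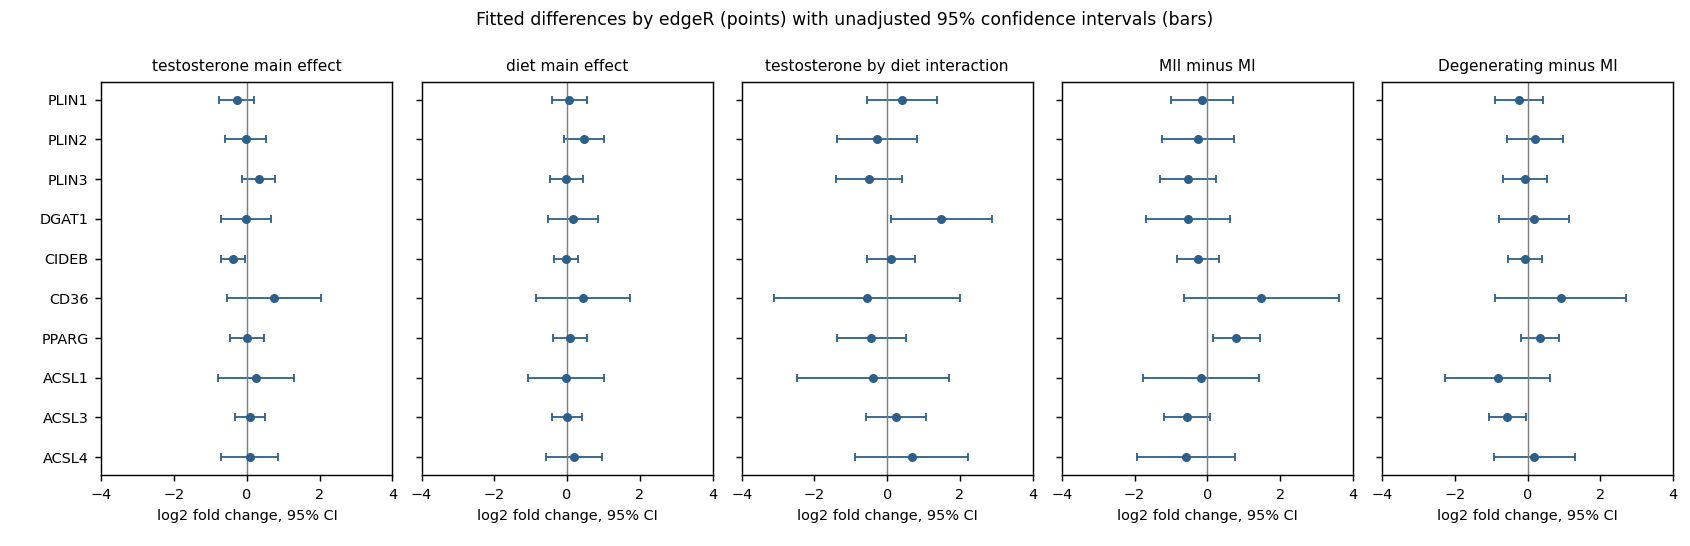
Fitted log2 differences (points) with unadjusted 95% confidence intervals (bars) of the 10 genes for both main effects, the interaction and both oocyte classes against MI. Only CIDEB for testosterone (-0.38), DGAT1 for the interaction (1.48), PPARG in MII (0.80) and ACSL3 with degenerating oocytes (-0.55) have an interval that leaves out 0, and none of these passed after adjustment over all genes.

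Precision differed between the genes. Intervals were narrow for CIDEB and ACSL3 and wide for CD36 and ACSL1. The biological coefficients of variation of CD36 and ACSL1 were 0.852 and 0.711, at the 87.2 and 79.8 percentile of all genes tested. That of CIDEB was 0.297 and that of ACSL3 0.309, beside a median of 0.40 over all genes. For CIDEB the unadjusted interval of the testosterone main effect ran from -0.71 to -0.05, but the gene did not pass after adjustment over all genes. For CD36 the testosterone main effect of 0.75 had an unadjusted interval from -0.54 to 2.05.

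The oocyte of the same follicle was compared next, with the treatment group as a term and the 1 GV library left out. None of the 10 genes passed edgeR's test in MII minus MI, in Degenerating minus MI or in Degenerating minus MII (0% of 14976 genes in each). DESeq2 and limma also called 0 of the 10, where DESeq2 called 6, 801 and 8 of all genes in the same order and limma 0. At an unadjusted p under 0.05 the 10 genes counted 1 in MII minus MI (3.91% of all genes), 1 in Degenerating minus MI (14.3%) and 0 in Degenerating minus MII (3.38%). No gene of the 10 had class ranges without overlap, with shares over all genes of 0.861%, 0.0935% and 0.661%. The medians of the 10 genes were -0.26 (2 of 10 positive), 0.06 (5 positive) and 0.10 (6 positive), beside -0.0071, 0.02 and 0.04 over all genes.

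PPARG was the gene with the smallest p for metaphase. Its level was 37.0 CPM at the lowest, 81.3 at the median and 111 at the highest in the 8 MI libraries. In the MII libraries it was at 146 (Chow+C 4), 84.3 (Chow+T 2), 122 (Chow+T 3) and 88.0 CPM (WSD+T 1), so that 2 of 4 lay above every MI library. The log2 difference with the group as a term was 0.80 (95% CI 0.14 to 1.45, unadjusted p = 0.02, adjusted p = 1.0). It was 0.52 without Chow+C 4, 1.13 without WSD+T 1 and 0.44 with no treatment term. MII and MI libraries occurred in the same treatment group only in Chow+C and WSD+T, with 1 MII library each (Chow+C 4 and WSD+T 1). Chow+T had no MI library and WSD+C no MII library. With the group as a term, every direct MII to MI comparison here thus rests on these single MII libraries. CD36, a target of this receptor, was at 282, 568, 50.9 and 98.2 CPM in the same MII libraries and had a median of 84.1 CPM in MI. Its difference was 1.49 (95% CI -0.64 to 3.61) and -0.06 without Chow+C 4. The other target genes PLIN1 and PLIN2 had MII minus MI differences of -0.16 (95% CI -1.001 to 0.69) and -0.26 (95% CI -1.25 to 0.72).

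CIDEB lay low and close together in the MII libraries, at 6.42, 6.53, 6.41 and 7.44 CPM, beside a median of 8.56 CPM in MI. Fitted with the treatment group as a term the difference was -0.26 (95% CI -0.83 to 0.31), and -0.02 without Chow+C 4. Of the 4 MII animals 3 carried testosterone, with which CIDEB also lay lower, though not past the threshold. The MII library without testosterone, Chow+C 4, was at 6.42 CPM. The part of testosterone in the MII levels was not tested. The ratio of ACSL1 to ACSL4 ran from -1.35 to -0.86 on the log2 scale in MII, from -2.90 to -1.02 in MI and from -5.23 to -0.61 in degenerating libraries. These ranges overlap, and 4 MII libraries give a narrower range than 8 MI or 6 degenerating ones by number alone. The ratio of PLIN2 to PLIN3 ran from -2.77 to -1.71 in MII, -3.39 to -1.38 in MI and -2.81 to -0.19 in degenerating libraries. These are ratios of counts that are not corrected for gene length, so they are compared between libraries only.

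**Figure D3:**
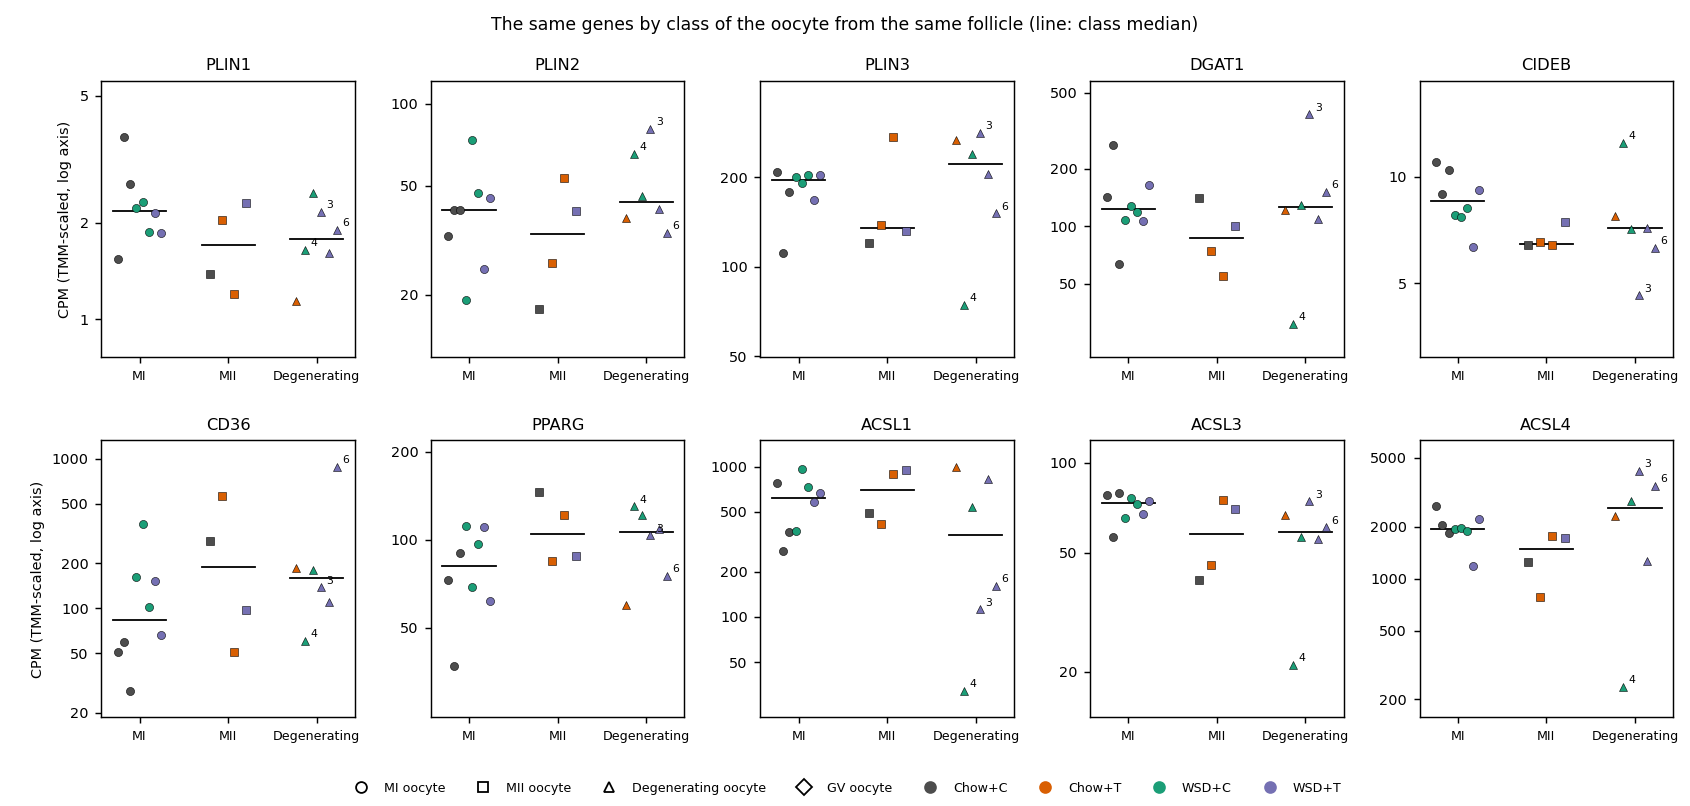
CPM (log axis) of the 10 genes by oocyte class in 18 libraries, with a line at the class median, colours for treatment groups, and the GV library left out although its marker stands in the legend. The degenerating class (n = 6) spreads over the widest range in every gene but PLIN1, PLIN2 and PPARG, and no class lies apart from another in any panel.

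With degenerating oocytes ACSL3 had the smallest p. It ran from 56.4 through a median of 73.3 to 79.0 CPM in MI and from 21.1 through 58.7 to 74.2 CPM in the degenerating class, of which 4 of 6 libraries lay inside the MI range and WSD+C 4 and WSD+T 4 below it. The log2 difference was -0.55 (95% CI -1.07 to -0.03, unadjusted p = 0.0382, adjusted p = 0.326). It was -0.29 without WSD+C 4, the lowest library, and -0.22 once the leukocyte score entered the fit. ACSL1 had a median of 352 CPM in the degenerating class (32.2 to 995 CPM) and 622 CPM in MI (274 to 965 CPM). Its difference was -0.82 (95% CI -2.26 to 0.63), -0.41 without WSD+C 4 and 0.19 without WSD+C 4, WSD+T 6 and WSD+T 3. The difference for CD36 was 0.91 (95% CI -0.89 to 2.71), and 0.05 without WSD+T 6.

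**Figure D4:**
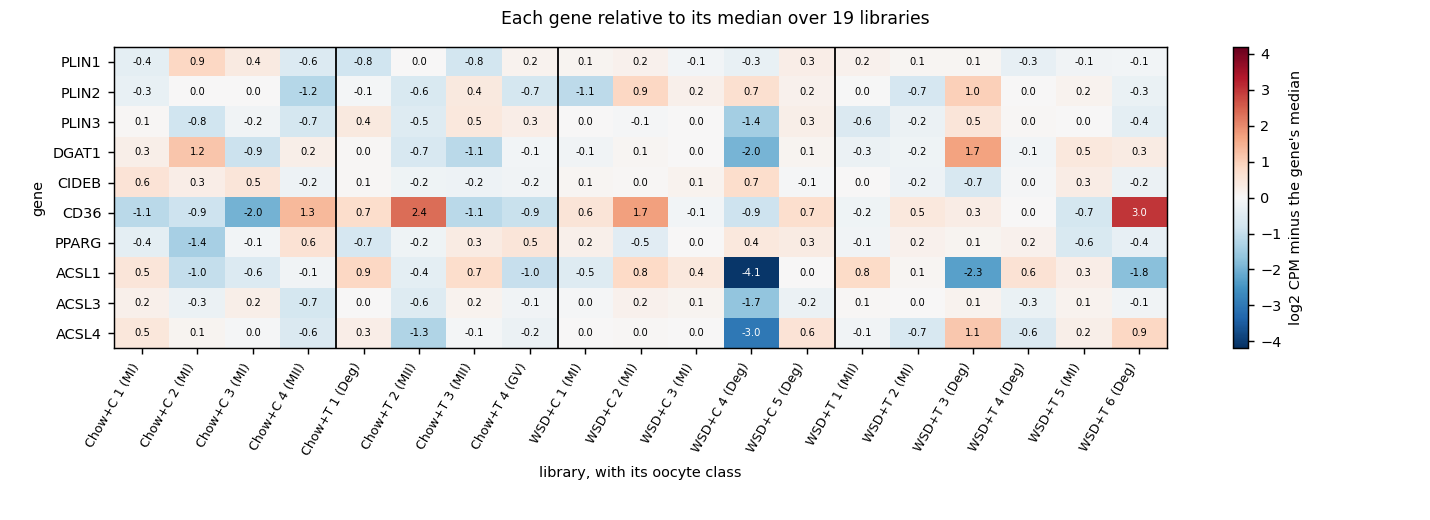
Difference of each gene's log2 CPM from its own median over the 19 libraries (colour and number), with libraries ordered by treatment group and oocyte class in brackets. The strongest colours sit in WSD+C 4, WSD+T 3 and WSD+T 6, in opposite directions for DGAT1 and ACSL4, and in CD36, where high libraries occur in all 4 groups.

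The libraries with degenerating oocytes did not share 1 pattern. Of the 10 genes WSD+C 4 had the lowest level of all 19 libraries in 5 (PLIN3, DGAT1, ACSL1, ACSL3 and ACSL4) and the highest in 1 (CIDEB, 12.48 CPM). WSD+T 3 had the highest level in 4 (PLIN2, PLIN3, DGAT1 and ACSL4) and the lowest in 1 (CIDEB, 4.63 CPM). WSD+T 6 had the highest level of CD36 and the next to highest of ACSL4. All 3 were low in ACSL1, while WSD+C 4 and WSD+T 3 sat at opposite ends in PLIN3, DGAT1, ACSL4 and CIDEB. The other degenerating libraries, Chow+T 1, WSD+C 5 and WSD+T 4, had ACSL1 at 995, 543 and 823 CPM, within or above the MI range. They had DGAT1 at 122, 129 and 109 CPM, within it.

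The leukocyte score was then used as a slope with the treatment group as a term, since white blood cells also make CD36, PPARG, PLIN2 and ACSL1. Of the 10 genes 2 passed edgeR's test, both lower at a higher score, beside 19.2% of all genes in either direction and 7.38% lower. The count of 2 in 10 is near the 19.2% for either direction and above the 7.38% for lower genes, but too small for an excess to be read. At an unadjusted p under 0.05 the count was also 2, beside 33.7%. ACSL1 was 0.43 lower on the log2 scale per unit of score (slope -0.43, 95% CI -0.69 to -0.17, adjusted p = 0.0212) and ACSL3 0.14 lower (slope -0.14, 95% CI -0.23 to -0.05, adjusted p = 0.0278). Each call was lost when certain single libraries were left out. Without WSD+C 4 neither passed, with slopes of -0.28 and -0.06, where 4.67% of genes still did, and without WSD+C 4 and WSD+T 6 neither did, beside 1.79%. Without WSD+T 6 ACSL1 did not pass (-0.46, adjusted p = 0.0579, beside 15.3% of genes), without WSD+C 2 ACSL3 did not (-0.13, adjusted p = 0.0655), and without WSD+C 4, WSD+T 6 and WSD+T 3 the slope of ACSL1 was 0.013. With no treatment term ACSL1 passed and ACSL3 did not (-0.10, adjusted p = 0.0882).

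CD36, the gene of the 10 most tied to macrophages, had a slope of 0.29 (95% CI -0.04 to 0.62, adjusted p = 0.201). Leaving out WSD+T 6 brought it to 0.02, and leaving out WSD+C 4 to 0.50. PPARG (0.06), PLIN2 (0.03), CIDEB (0.02), PLIN1 (-0.04), ACSL4 (-0.06), DGAT1 (-0.08) and PLIN3 (-0.10) did not pass, with intervals on both sides of 0. Summed leukocyte markers ran from 9.69 to 65.5 CPM in MI, 29.98 to 119 CPM in MII and 11.1 to 2323 CPM in the degenerating class, so score and oocyte class overlap in part.

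**Figure D5:**
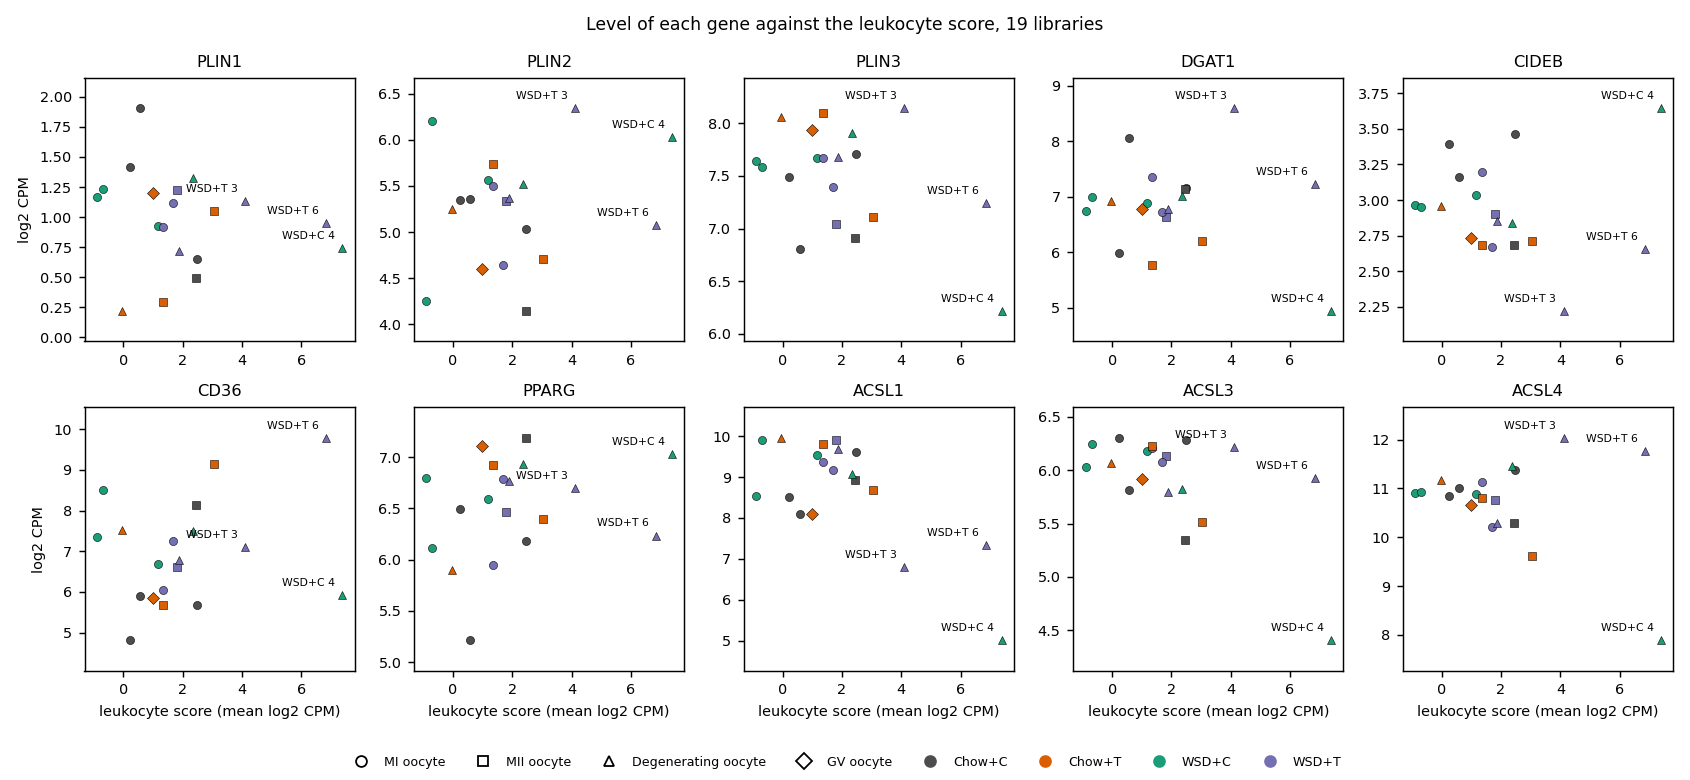
Log2 CPM of the 10 genes against the leukocyte score (mean log2 CPM of 11 marker genes) in 19 libraries, with colours for groups, shapes for oocyte classes and names at WSD+C 4, WSD+T 3 and WSD+T 6. Only these libraries lie above a score of 3.04, and in the ACSL1 panel all 3 lie below every other library.

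Further genes of the same pathways were drawn from 6 lists: droplet coat and assembly, triglyceride synthesis, lipolysis, fatty acid uptake and binding, other acyl-CoA synthetases and thioesterases, and PPAR partners and targets. Of 95 genes listed 91 were found and 79 tested. By edgeR 0 of 79 passed in each treatment and oocyte comparison, and at an unadjusted p under 0.05 the count was highest in WSD+T minus Chow+C (9 of 79 or 11.4%, 4 higher and 5 lower, beside 6.75% of all genes) and in Degenerating minus MI (also 9 or 11.4%, 5 higher and 4 lower, beside 14.3%) and lowest in MII minus MI (2, beside 3.91%). DESeq2 called 4 of 79 in Degenerating minus MI (ACSL5, ACSM3, GPAT4 and SLC27A2), beside 801 of all 14976 genes, so nothing particular to the pathway is read from that count. It called 0 of 79 in the others, and limma 0 in each. Those named next had the smallest p of their comparison, not past the threshold.

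On chow the 3 genes of smallest p for testosterone were SLC27A4, PPARGC1A and ABHD5, from 3 different lists. ABHD5, the coactivator that perilipins hold back from the triglyceride lipase, had a mean of 86.5 ± 31.4 CPM (SD, n = 4) under control conditions on chow, against 179 ± 67.1 CPM (n = 4) with testosterone. Its log2 difference was 1.05 (95% CI 0.27 to 1.83, adjusted p = 0.658), and 0.79 to 1.24 when any 1 library was left out. SLC27A4, a fatty acid transport protein, averaged 17.9 ± 3.42 and 12.3 ± 1.21 CPM in the same groups (-0.54, 95% CI -0.92 to -0.16). PPARGC1A, a coactivator of PPARG, averaged 2.98 ± 1.64 and 0.957 ± 0.275 CPM (-1.63, 95% CI -2.83 to -0.43), and -1.28 without Chow+C 2. In WSD+T minus Chow+T SLC27A4 differed by 0.47 (95% CI 0.12 to 0.82), and its interaction was 0.80 (95% CI 0.31 to 1.30, adjusted p = 0.933). GPAM, which starts triglyceride synthesis, differed by 1.01 between WSD+T and Chow+T (95% CI 0.13 to 1.90), with 100.1 CPM in WSD+T 3, the library of highest DGAT1, and 94.7 CPM in WSD+T 6. Without WSD+T 3 the difference was 0.75.

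Several genes of small p had 1 far library that also stood apart in the 10 genes. The synthetase ACSL6, a gene of red blood cells and brain, was at 124 CPM in WSD+C 4 and at 1.06 to 2.40 CPM elsewhere, and its WSD+C minus Chow+C difference was 4.06 with it and 0.13 without. PLIN5, the perilipin of oxidative tissue, was at 2.41 CPM in WSD+C 4 and at 0.690 CPM or less elsewhere. Its WSD+T minus WSD+C difference was -2.28 with that library and -0.72 without. The mitochondrial carrier UCP2 was at 787 CPM in WSD+T 6, and its WSD+T minus Chow+C difference was 2.81 with it and 0.67 without. SLC27A2, a transporter and synthetase of very long fatty acids, was at 10.4 CPM in WSD+T 3 and at 1.93 CPM or less elsewhere. With degenerating oocytes SLC27A2 differed from MI by 3.24 (95% CI 1.24 to 5.24, adjusted p = 0.169), and by 2.26 without WSD+T 3. GPAT4, another enzyme of the first step of triglyceride synthesis, averaged 149 ± 55.4 CPM (n = 6) with degenerating and 245 ± 83.0 CPM (n = 8) with MI oocytes (-0.93, 95% CI -1.54 to -0.31, adjusted p = 0.173).

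The remaining genes of smallest p were the following, none past the threshold. LDAH, a droplet hydrolase, had a log2 difference of 0.54 in WSD+T minus Chow+C. The uptake gene SLC27A1 had -0.60 in WSD+C minus Chow+C and -0.29 without Chow+C 2, and the droplet fusion gene CIDEC 2.35, with at most 1.67 CPM (WSD+C 4) and 1.24 without that library. CAV1, of caveolae, had -1.46 in WSD+T minus WSD+C and -0.50 without WSD+C 4. RXRB, a partner of PPARG, had a diet main effect of -0.32 and -0.21 without Chow+C 2. In MII minus MI the values were -0.78 for the thioesterase ACOT7, -0.54 for AGPAT5, of phosphatidic acid synthesis, and 1.95 for the lipoprotein lipase gene LPL. ACOT7 was at -0.47 and AGPAT5 at -0.28 without Chow+T 1. ACSM3, a synthetase of medium-chain fatty acids, had 2.27 in Degenerating minus MI and 1.07 without WSD+C 4. In Degenerating minus MII the coactivator PPARGC1B had 2.66 and the phosphatase LPIN3 -1.78.

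With the leukocyte score 20 of 79 tested pathway genes passed, 11 higher and 9 lower, beside 19.2% of all genes (11.8% higher and 7.38% lower), so nothing particular to the pathway is read from the count. Without WSD+C 4, 6 pathway genes passed (ACSL5, ACSM3, MGLL, NR1H3, PPARA and UCP2), all among these 20, beside 4.67% of all genes. Without WSD+T 6, 13 pathway genes passed, 10 of them among the 20, beside 15.3% of all genes. Without both libraries 0 passed, beside 1.79%. The 20 were picked by the main fit, so a share of them is not comparable with a share of all genes. Those higher at a higher score were ACSM3 (0.47 per unit), ACSL5 (0.63), ACSL6 (0.60), MGLL (0.73), UCP2 (0.47), CAV1 (0.32), AQP3 (0.24), PLIN5 (0.35), NR1H3 (0.44), LPL (0.36) and LDAF1 (0.20). MGLL, which splits monoglyceride, was at 56.2 CPM and NR1H3, the oxysterol receptor LXR alpha, at 33.8 CPM in WSD+T 6. Lower at a higher score were PPARA (-0.37), VLDLR (-0.33), G0S2 (-0.47), LIPE (-0.34), ACBD3 (-0.12), ANGPTL4 (-0.69), GOT2 (-0.20), ACOT7 (-0.16) and AGPAT5 (-0.11). G0S2, an inhibitor of triglyceride lipase, was at 54.7 CPM in WSD+C 4, 119 in WSD+T 6 and 133 in WSD+T 3 and at 226 CPM or more elsewhere. ANGPTL4, a PPAR target that inhibits lipoprotein lipase, was at 15.001, 102 and 112 CPM in the same order and at 205 CPM or more elsewhere. LIPE, the hormone-sensitive lipase, was at 8.61, 35.7 and 42.2 CPM and at 71.9 CPM or more elsewhere. Levels of G0S2, ANGPTL4 and LIPE were low in the same 3 libraries as ACSL1, which are the 3 of highest leukocyte score. These genes, like ACSL1, are named for a negative slope on that score, so the shared low levels are no separate result.

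Genes whose pattern over the 19 libraries was most like that of each of the 10 were sought among 11170 named genes whose log2 CPM averaged 0 or more. The likeness is Spearman's rho, given as a description over libraries that share their makeup and depth. Values picked as the highest of 11170 genes over 19 libraries are high by that choice alone, so no link between genes is read from them. The most like ACSL1 were USP6NL (0.94), IBTK (0.90) and CUL1 (0.89). Among the most like DGAT1 were ARFRP1 (0.89) and PMM1 (0.86), and among the most like ACSL4 were IL1R1 (0.86) and IRX3 (0.85). For PLIN3 they were HDGF (0.88), CD63 (0.85) and TIMP1 (0.82), for ACSL3 MRPL15 (0.86), SLC39A14 (0.86) and OSMR (0.86), and for CIDEB PVT1_7 (0.85), WT1 (0.84) and SRCAP (0.82). For PLIN2 they were PMEPA1 (0.78), RANBP10 (0.76) and TNPO1 (0.74), for PLIN1 SRP19 (0.77), AHI1 (0.71) and NAT6 (0.68), for PPARG SKA3 (0.79), NSA2 (0.78) and RPS29 (0.78), and for CD36 NEO1 (0.78), U6 (0.78) and CDK2AP1 (0.77). Among the 45 pairs of the 10 genes rho was highest for DGAT1 with ACSL4, at 0.74, and 0.66 over the 17 libraries other than WSD+C 4 and WSD+T 6. It was lowest for CIDEB with CD36, at -0.51 and -0.41 over the 17 libraries, where CIDEB with PPARG was lowest (-0.60, beside -0.32 over 19). For the receptor PPARG with its target CD36 it was -0.065 over 19 and 0.054 over 17 libraries.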

How the data were processed

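The authors deposited raw read counts per gene for 19 libraries, made from polyA-selected, non-directional libraries per the labels' protocols. Per the submitters' processing notes, Trimmomatic trimmed the reads and STAR aligned them. Their build is not given in the sources used here, nor is the annotation. Library sizes leave out the 4 read classes that name no gene, which took 1.62% to 2.25% (ambiguous), 7.03% to 18.3% (multimapping), 18.3% to 33.5% (no feature) and 1.46% to 3.92% (unmapped) of reads.

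Counts were scaled by TMM and filtered with filterByExpr (minimum count 10, minimum total 15) in edgeR 4.0.16 under R 4.3.3, which left 15019 genes, or 14976 for oocyte classes. Differences come from edgeR's robust quasi-likelihood test, two-sided, with p-values adjusted by Benjamini-Hochberg over all genes tested and a threshold of 0.05. Treatment fits used all 19 libraries, and oocyte and leukocyte score fits carried the treatment group as a term. Confidence intervals are unadjusted. The test was checked on simulated data. Marker scores are mean log2 CPM with a prior count of 1. Alternatives were DESeq2 1.42.0, limma 3.58.1 (voom), DESeq2 size factors, no filter, each library left out, the libraries of high leukocyte score left out, MI and MII libraries alone, the score or oocyte class as a covariate, and no treatment term. Each library is 1 animal, so p-values measure the spread between animals within these groups.

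The 10 genes, the pathway lists and the marker lists were chosen with earlier results of these data known. Named are all 10 genes, further pathway genes past the threshold or, per comparison, the 3 of smallest p, and per gene the 3 of most like pattern, of which 1 item is not reported here. Gene identifiers were matched by the symbols in the deposited counts and, where those had none, a reference table.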

Additional observations from a re-analysis of the deposited data

Results flagged for a closer look

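In 15 of 70 groups of libraries (each of the 10 genes in 4 treatment groups and 3 oocyte classes) 1 library lay farther from the others than Dixon's 95% limit. The limit was applied to CPM and not to log2 CPM. Chance flags about 1 in 20 groups of normally distributed values, a shape that CPM need not have. Treatment groups and oocyte classes also share libraries, so no excess is read from the count of flags. WSD+C 4 was low within WSD+C for PLIN3 (74.4 CPM) and DGAT1 (30.8 CPM), low among degenerating libraries for ACSL3 (21.1 CPM) and high within WSD+C for CIDEB (12.48 CPM). WSD+T 3 was high within WSD+T for PLIN2 (81.0 CPM) and high for DGAT1 (385 CPM) within both WSD+T and the degenerating class. WSD+T 6 was high for CD36 (885 CPM) within the same groups. CD36 was also high in Chow+C 4 within Chow+C (282 CPM) and in WSD+C 2 within MI (365 CPM). PLIN3 was low in Chow+C 2 within MI (112 CPM) and high in Chow+T 3 within MII (274 CPM). CIDEB was high in Chow+T 1 within Chow+T (7.75 CPM) and in WSD+T 1 within MII (7.44 CPM). PPARG, PLIN1, ACSL1 and ACSL4 had no such library in any group on the CPM scale, which hides low values more than a log scale does. ACSL4 was nonetheless at 237 CPM in WSD+C 4 and at 1895 CPM or more in the rest of WSD+C. ACSL1 was at 32.2 CPM in WSD+C 4 and at 374 CPM or more in the rest.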

How the results depend on the processing

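For the 10 genes, 3271 of 3280 values under the alternatives kept the side of the threshold, 8 lost a call and 1 reversed, all of these 9 for the leukocyte score slope. The main fit called only ACSL1 and ACSL3, both for that slope, so no other value could lose a call. The 3271 values are therefore no measure of stability. Of the uncalled values 247 changed sign. The number of the 10 genes called by the slope was 0 to 2 with any 1 library left out, 0 without WSD+C 4 and WSD+T 6, 0 without WSD+T 3 as well and 1 with no treatment term. All genes called by the slope numbered 690 to 4050 with any 1 library left out (690 without WSD+C 4), 262 without WSD+C 4 and WSD+T 6 and 151 without all 3. Leaving out all 3, an alternative added after seeing the data, turned the slopes of ACSL1 (0.013), LIPE (0.10) and ACBD3 (0.010), and the MI and MII libraries alone turned ACSL6 for testosterone (0.081) and diet (-0.038). The cause was not tested.

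DESeq2 called 5 genes in Chow+T minus Chow+C, 3 in WSD+T minus Chow+C, 4 in WSD+T minus Chow+T, 3 for testosterone, 5 for diet, 3 for the interaction, 6 in MII minus MI, 801 in Degenerating minus MI and 8 in Degenerating minus MII, where edgeR called 0 and limma 0. With MI and MII libraries alone edgeR called 4 genes in Chow+T minus Chow+C and 1 in WSD+T minus Chow+T. Degenerating minus MI gave 574 genes with no treatment term and 0 to 226 with any 1 library left out (226 without Chow+T 1). Degenerating minus MII gave 6 with the leukocyte score as a covariate and 0 to 1 with any 1 left out (1 without WSD+C 2), and the diet main effect 0 to 1 (1 without Chow+C 4). Of 1426 values for further pathway genes 98 lost a call, 4 reversed (ACSL6 for both effects, LIPE and ACBD3) and 4 gained one, all in Degenerating minus MI: SLC27A2 (3.28), ACSM3 (2.29) and GPAT4 (-0.91) by DESeq2, and ACSM3 (2.25) with no treatment term. No paired analysis was possible because replicate numbers follow accession order and pair no animals. PLIN1, at 46 to 111 reads per library, is the gene that depth limits most.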
